A study of Mus musculus with 60 samples.

Results

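Retinoic acid (RA) acts inside the cell through a small set of proteins, and the RNA of 9 genes that encode them was followed here in mouse embryonic stem cells (mESCs) before and during RA differentiation. The genes were the receptors Rara, Rarb and Rarg, the degrading enzymes Cyp26a1 and Cyp26b1, the cellular binding proteins Crabp1 and Crabp2, the membrane receptor Stra6 and the retinaldehyde reductase Dhrs3. They were a listed set, chosen with earlier results of these data known. Matching their symbols to the Ensembl gene identifiers of the count tables gave 9 of 55487 genes. Counts of changed genes among them therefore describe the set and are no test of it.

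The study asked how parental histones that are passed on at the replication fork shape cell identity, and sequenced rRNA-depleted RNA of 2 E14JU mESC lines, each of which was 1 clone. In both lines POLE4, a subunit of the leading-strand polymerase that hands histones on, carried a dTAG degron, and the lines were tagged separately in a wild-type (WT) and an MCM2-2A background, in which MCM2 has lost its histone binding. Cells received DMSO ("Ctrl" and "Ctrl MCM2-2A") or 1 µM dTAG ("dPOLE4" and "dPOLE4 MCM2-2A") for 24 h in serum and LIF (T0), and then RA without LIF for 12, 24 or 60 h (T12, T24 and T60). A second experiment held the same 4 states after 96 h of DMSO or dTAG without RA (96h), which made 20 groups of 3 libraries. All groups thus carried the degron on POLE4, and the difference between the backgrounds cannot be told apart from a difference between 2 clones. POLE4 was removed as protein, so that its RNA does not check the depletion.

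As background, RA enters a cell or is made there from retinol through retinaldehyde. STRA6 takes up retinol from its carrier in plasma, DHRS3 turns retinaldehyde back into retinol, the CRABP proteins hold RA in the cytoplasm, and CYP26 enzymes oxidise it for removal. RARs sit on DNA as partners of RXRs at direct repeats of a short half-site, release co-repressors when RA binds, and switch on targets that include Rarb and the Cyp26 genes themselves. RARα and RARγ are the forms known from undifferentiated mESCs, while RARβ is known as an RA-induced gene.

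Promoter sequences from RefSeq (GRCm38.p6, 250 bases before to 50 after an annotated start) were at hand for 8 of the 9 genes, in 17 windows. A direct repeat with a spacer of 5 bases (DR5) of the half-site AGGTCA or its variants, the form AGTTCA, the form GGGTCA and the form GGTTCA, read on both strands, was present in the windows of Rarb and Cyp26a1 and in none of the other 6 genes with a window. Both are shown because they are the members whose windows hold the repeat. The half-sites are in capitals and each line ends 5 bases past the repeat.
Rarb (chr14:16575508-16575589, minus strand): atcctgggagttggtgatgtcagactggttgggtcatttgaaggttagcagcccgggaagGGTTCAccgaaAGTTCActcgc
Cyp26a1 (chr19:37697716-37697797, plus strand, the repeat on the opposite strand): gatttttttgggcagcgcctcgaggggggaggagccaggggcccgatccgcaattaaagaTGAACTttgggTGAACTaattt
The repeat lay 53 to 37 bases before the RefSeq start of Rarb and 32 to 16 bases before that of Cyp26a1. Of 32851 windows of the same length, 0.09741% held a DR5 of these half-sites. Repeats with a spacer of 1 or 2 bases (0.2222% and 0.2679% of all windows) were absent from the members' windows.

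The libraries of the RA experiment held 10461077 to 46609151 counts and those of the 96 h experiment 7126100 to 23598266, and the 2 experiments were kept apart. Levels are normalised counts in CPM, which scales each library to a common total. A gene was called DE at an adjusted p below 0.01 and an absolute log2 fold change above 0.58 in edgeR's quasi-likelihood test, with Benjamini-Hochberg adjustment over all features tested. Nothing in the labels says what separated the 3 libraries of a group, so the p-values measure the spread between these libraries. As a check of the cell type, all 7 pluripotency markers (such as Pou5f1 and Nanog) were detected at T0, with a summed level of 3277 to 3387 CPM in Ctrl. In Ctrl at T60 their sum was 279 to 370 CPM, while 6 neural progenitor markers summed to 140 to 167 CPM at T0 and to 347 to 374 CPM at T60, and 7 endoderm markers to 13.5 to 24.4 CPM and to 305 to 375 CPM. In bulk RNA, fewer cells of a type and less RNA per cell cannot be told apart.

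Most of these genes changed in Ctrl cells under RA, and they did so in an order. RA was added as LIF was withdrawn, and no group lost LIF without RA. The changes over T0 thus cannot be told apart between RA, LIF loss and time in culture. The words RA response below cover all of these. At T12, 7 of the 9 genes were DE, all higher, where 11.3% of all features tested were DE. At T24 there were 8 DE members, 7 higher and Rarg lower, against 21.8% of all features, and at T60 again 8, 7 higher and Rarg lower, against 50.6%. Rarb and Cyp26b1 lay near the detection limit before RA and passed the filter on low counts in these comparisons through the RA-treated libraries, so that their calls were bound to follow. The DESeq2 test gave 7, 8 and 8 DE members at the same times.

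Cyp26a1 (ENSMUSG00000024987, chr19:37697798-37701536), which encodes the main RA hydroxylase of the early embryo, had come close to its T60 level by T12. It was at 2.95, 3.36 and 3.29 CPM in the Ctrl libraries at T0 and at 166, 216 and 187 CPM at T12, a rise of 59.3-fold. At T24 the libraries held 172, 194 and 188 CPM, and at T60 276, 188 and 172 CPM. The libraries of T12, T24 and T60 overlapped, and 89.3% of the mean change up to T60 was present at T12. The log2 fold change over T0 was 5.89 (SE 0.12, adjusted p = 6.22e-11) at T12 and 6.03 (SE 0.19, adjusted p = 5.71e-13) at T60, while the step from T12 to T24 was -0.04 (SE 0.08, adjusted p = 0.777).

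Cyp26b1 (ENSMUSG00000063415, chr6:84571414-84593908, minus strand), its paralog and an enzyme of the same reaction, followed another course. The 3 Ctrl libraries at T0 held 3 to 5 counts each (0.17, 0.285 and 0.152 CPM). The level was 9.64, 15.3 and 14.3 CPM at T12, 17.7, 21.9 and 25.5 CPM at T24, and 261, 232 and 225 CPM at T60. At T12 5.4% and at T24 8.99% of the T60 change had been reached, so most of the rise fell between 24 and 60 h, where the log2 step was 3.49 (SE 0.10, adjusted p = 1.25e-12). The earlier step, from T12 to T24, was 0.74 (SE 0.17, adjusted p = 0.00841), and its call was lost without Ctrl T12 replicate 1 (0.53) or 3 (0.82) and without Ctrl T24 replicate 2 (0.73) or 3 (0.62). Per kb of exon, Cyp26b1 made up 2.48% ± 0.336 (SD, n = 3) of the CYP26 RNA of Ctrl at T12 and from 25.9% to 32.7% in the libraries of T60.

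**Figure D1:**
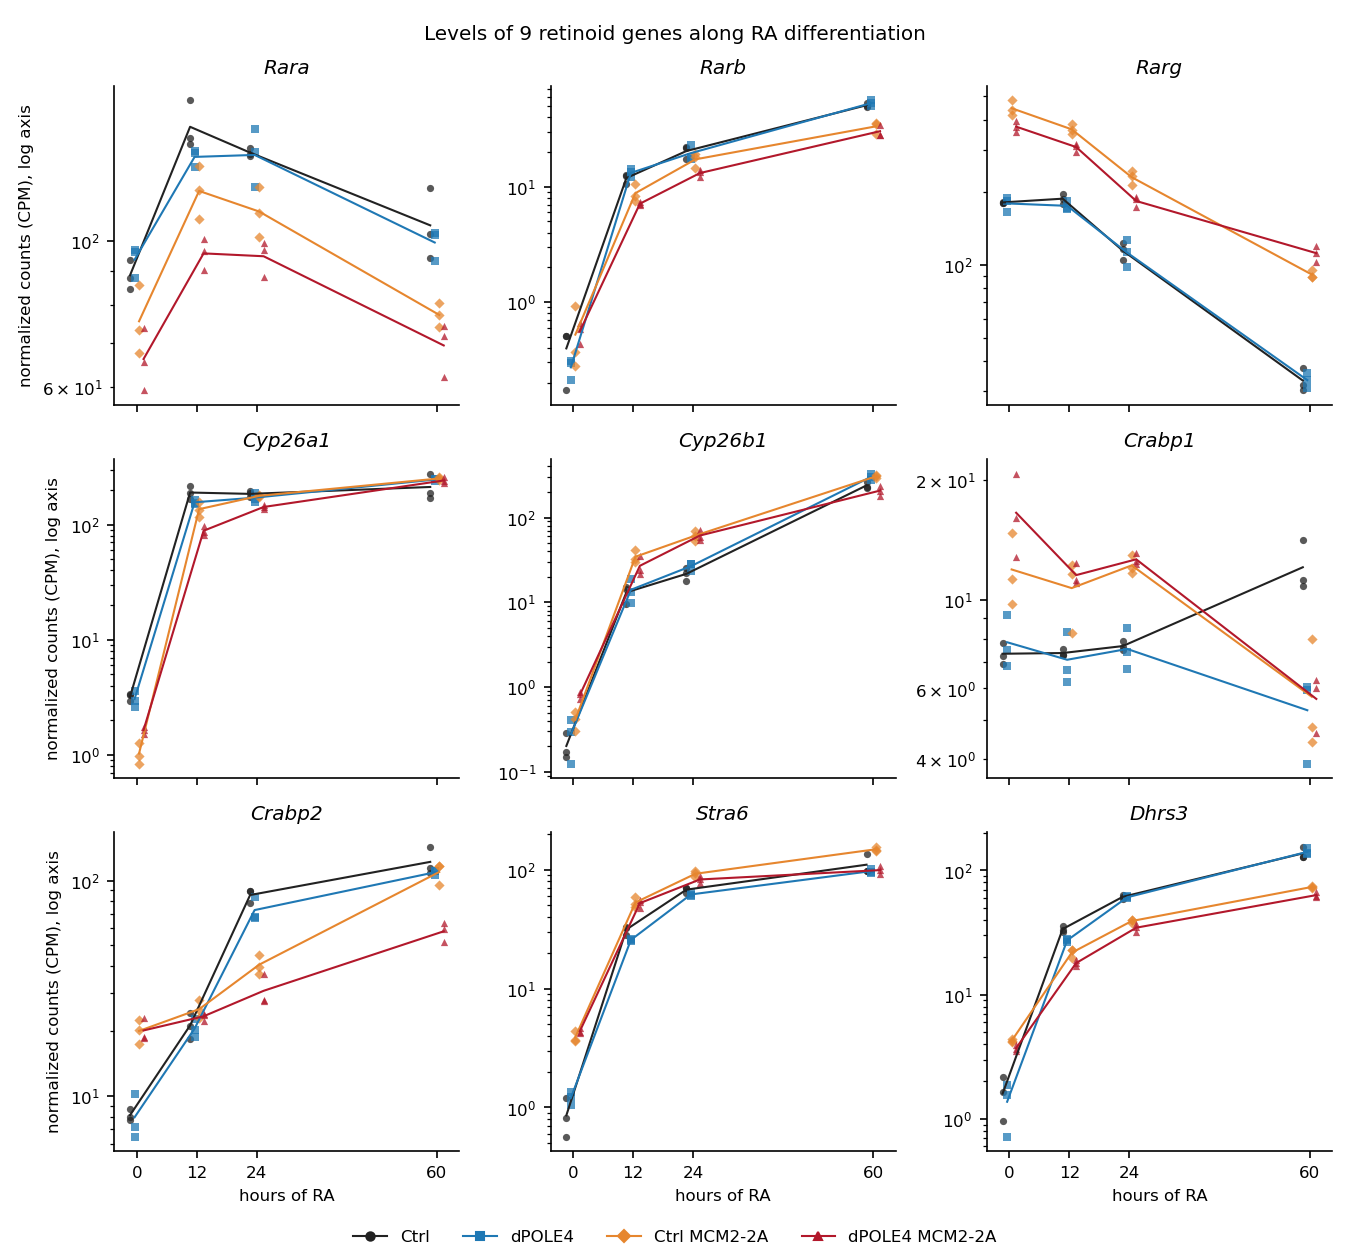
Level of each of the 9 genes (CPM, log axis) against hours of RA, with 1 point per library and 1 line per state. In Ctrl, Cyp26a1 reached 166 to 216 CPM at 12 h and stayed near it, Cyp26b1 went from 17.7 to 25.5 CPM at 24 h to 225 to 261 CPM at 60 h, and Rarg fell from 181 to 183 CPM to 30.2 to 37.5 CPM.

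The 3 receptors exchanged places. Rarg (ENSMUSG00000001288, chr15:102234938-102257517, minus strand) was at 181, 181 and 183 CPM in Ctrl at T0 and at 188, 197 and 179 CPM at T12. It then fell to 124, 116 and 104 CPM at T24 and to 37.5, 31.9 and 30.2 CPM at T60, a log2 fold change over T0 of -0.65 (SE 0.06, adjusted p = 1.96e-07) and -2.46 (SE 0.08, adjusted p = 5.3e-13). The T24 and T60 libraries lay below every T0 library. Rarb (ENSMUSG00000017491, chr14:16430839-16819156, minus strand) had 3 to 10 counts in each Ctrl library at T0 (0.51, 0.171 and 0.506 CPM), and 10.5, 12.6 and 12.5 CPM at T12, 17.4, 21.5 and 22.3 CPM at T24 and 53.1, 49.9 and 49.4 CPM at T60. Its exons overlap those of Top2b on the opposite strand and of the antisense model Gm48162, and since the strand setting of the counting is not given in the sources used here, reads of these genes may not be fully separated. Rara (ENSMUSG00000037992, chr11:98927818-98974942) was at 84.7, 93.7 and 87.9 CPM at T0, 141, 164 and 144 CPM at T12, 136, 139 and 135 CPM at T24 and 121, 94.1 and 103 CPM at T60. Its rise was DE at T12 (0.75, SE 0.07, adjusted p = 5.21e-06) and at T24 (0.63, SE 0.05, adjusted p = 5.48e-08), and it measured 0.24 (SE 0.08, adjusted p = 0.0137) at T60.

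Set side by side per kb of exon, the receptor RNA of Ctrl cells at T0 was 67.6% ± 1.12 Rarg, 32.3% ± 1.17 Rara and 0.12% Rarb (SD, n = 3). At T60 it was 58.0% ± 1.82 Rara, 23.3% ± 1.47 Rarb and 18.7% ± 0.859 Rarg, and the ranges of each gene at T0 and T60 did not overlap. The summed receptor level was 63.0 ± 0.99 CPM per kb at T0, 80.6 at T12, 62.1 at T24 and 41.7 ± 4.25 at T60. The receptor RNA thus held less Rarg and more Rarb per unit at the end of the course than at its start.

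**Figure D2:**
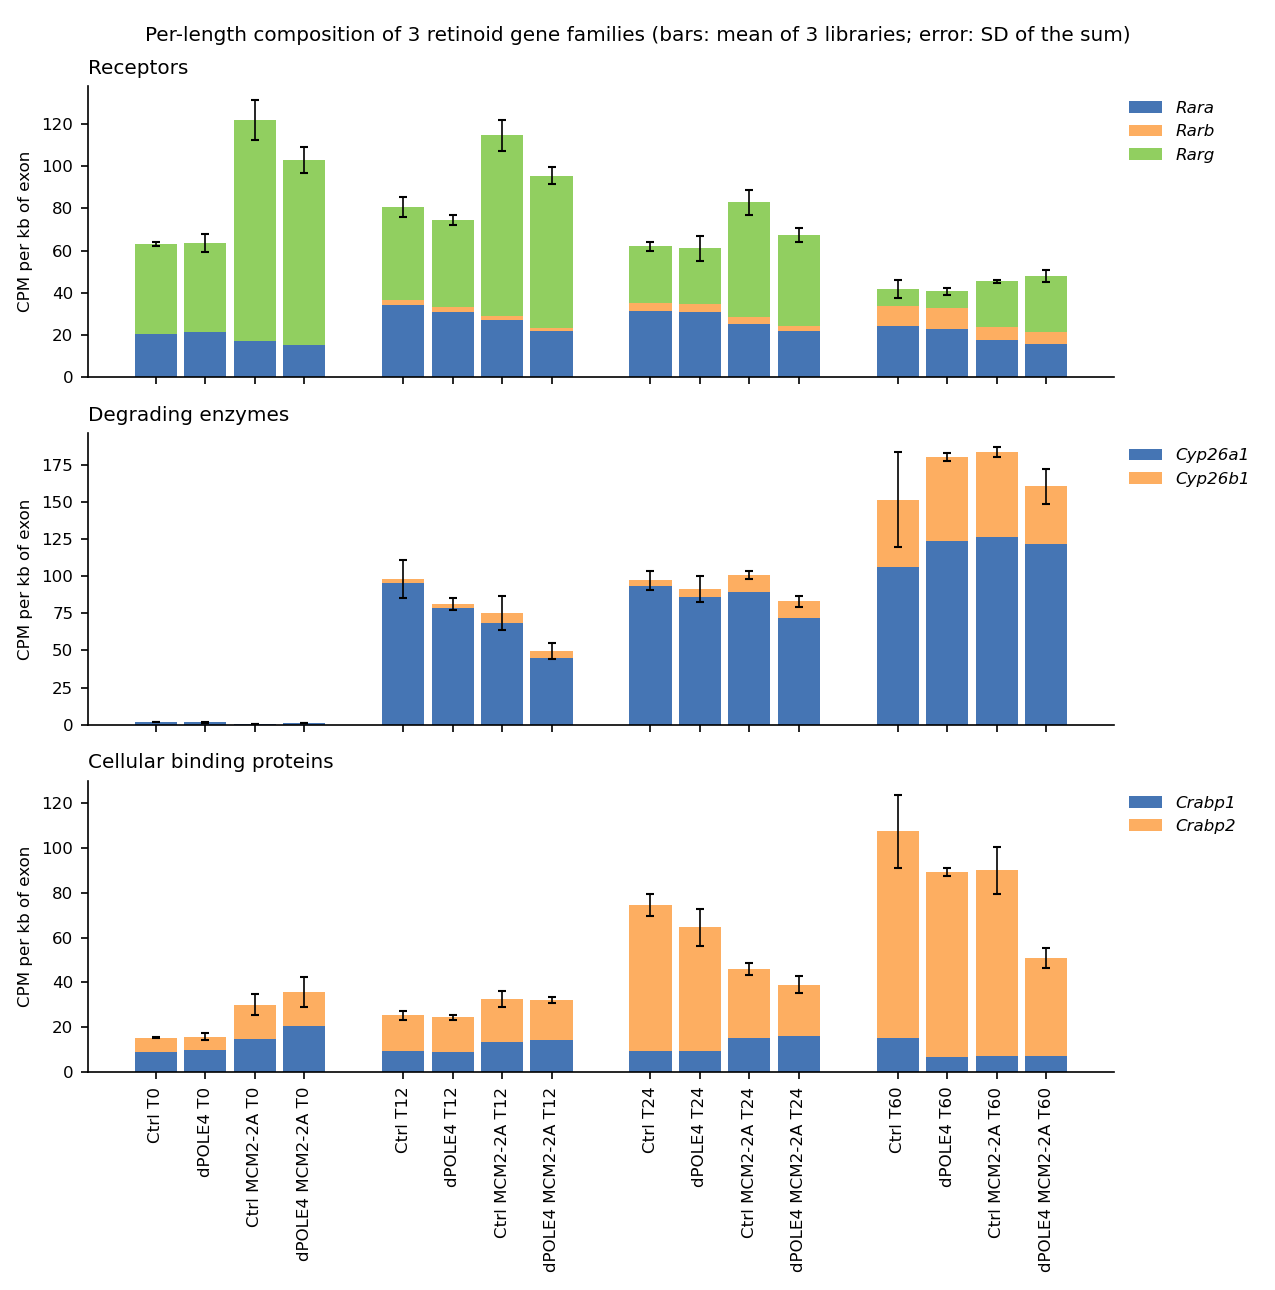
Level per kb of exon (CPM per kb) of the receptors, the degrading enzymes and the cellular binding proteins in each group, stacked by gene, with bars as the mean of 3 libraries and error bars as the SD of the sum. In Ctrl the receptor bar turned from 67.6% Rarg at T0 to 58.0% Rara at T60, and in Ctrl MCM2-2A Rarg still made up 47.1% at T60.

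Of the binding proteins, Crabp2, which carries RA to the nucleus, rose steadily and Crabp1 hardly moved before T60. Crabp2 (ENSMUSG00000004885, chr3:87948666-87953376) was at 7.94, 7.75 and 8.7 CPM in Ctrl at T0, 18.4, 24.2 and 21.2 CPM at T12, 78.3, 89.6 and 89.3 CPM at T24 and 144, 108 and 115 CPM at T60. Its log2 fold change was 1.38 (SE 0.12, adjusted p = 3.03e-06) at T12 and 3.4 (SE 0.08, adjusted p = 2.49e-13) at T24. The step from T24 to T60 was 0.53 (SE 0.09, adjusted p = 7.56e-05), under the fold threshold, and 0.60 without Ctrl T60 replicate 2, which took it past. Crabp1 (ENSMUSG00000032291, chr9:54764748-54773110), linked to RA breakdown in the cytoplasm, was at 7.26, 7.81 and 6.93 CPM at T0, 7.53, 7.27 and 7.28 CPM at T12, 7.62, 7.89 and 7.48 CPM at T24 and 14.2, 11.2 and 10.8 CPM at T60. Its first 3 times overlapped and the T60 libraries lay above them, with a log2 fold change over T0 of 0.72 (SE 0.14, adjusted p = 0.000211). The step from T24 to T60 was 0.68 and was lost without Ctrl T60 replicate 1 (0.54).

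Stra6 and Dhrs3, which act on retinol and retinaldehyde, rose at every time measured. Stra6 (ENSMUSG00000032327, chr9:58063788-58153996) went from 0.567, 1.2 and 0.809 CPM at T0 to 28.4, 33.2 and 32.4 CPM at T12, 70.2, 69.7 and 63.3 CPM at T24 and 135, 97.1 and 96.9 CPM at T60. That is a mean rise of 36.5-, 79.0- and 128-fold, and the last step was 0.71 on the log2 scale, lost without Ctrl T60 replicate 1 (0.53). Dhrs3 (ENSMUSG00000066026, chr4:144892827-144928209) went from 0.964, 1.65 and 2.18 CPM to 32.1, 35.8 and 33.3 CPM, then 61.2, 63.5 and 59.3 CPM, and 155, 129 and 128 CPM, which is 21.1-, 38.4- and 85.9-fold over T0. The 4 times of Dhrs3 did not overlap. In the steps of Ctrl, 6 members were DE from T12 to T24 (6.97% of all features) and 6 from T24 to T60 (35.7%).

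The order of the levels turned over. Per kb of exon, Ctrl at T0 ran from Rarg (42.6 CPM per kb) through Rara (20.3), Crabp1 (9.14), Crabp2 (6.15), Cyp26a1 (1.61), Dhrs3 (0.546) and Stra6 (0.147) to Rarb (0.0752) and Cyp26b1 (0.0378), and Rarb and Cyp26b1 were the only neighbours that overlapped. At T60 Cyp26a1 (107 ± 28.5 CPM per kb, SD, n = 3) and Crabp2 (92.5 ± 14.2) led and overlapped. Dhrs3 (46.9) and Cyp26b1 (44.7) followed and overlapped, then Rara (24.2), Stra6 (18.8) and Crabp1 (15.1) as overlapping neighbours, and last Rarb (9.65) and Rarg (7.79). With the longest transcript as the length, Crabp2 came first and Cyp26a1 second at T60, Stra6 and Rara changed places, and so did Rarb and Crabp1. Rarg thus went from the highest to the lowest per-length level of the 9 genes in 60 h under either length.

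The other genes of the retinoid pathway, a list of 54, moved in part. In Ctrl at T60, 45 were tested, of which 29 were higher and 8 lower, where 50.6% of all features were DE, with a median log2 fold change of 1.67 against -0.0134 over all features tested. At T12, 11 were higher and none lower of 38 tested (11.3% of all features DE), and at T24 16 higher and 1 lower of 43 (21.8%). All 11 genes listed because they are known as RA targets were higher at T60, and 11 of 16 synthesis genes tested were higher with 3 lower. Over all features, 4856 of 18082 tested were DE and higher at T60. The list was chosen with earlier results of these data known, so these counts describe it and test nothing. Of the partners, Rxra went from 29.3 to 95.7 CPM (log2 fold change 1.69, SE 0.09, adjusted p = 1.51e-10), Rxrb measured 0.03 (SE 0.07) and Rxrg, at under 1 CPM, 0.79 (SE 0.44, adjusted p = 0.115). Aldh1a2, which makes RA, rose from 1.35 to 5.65 CPM, and Rdh10, which makes retinaldehyde, from 12.5 to 20.8 CPM. The largest falls in the list were those of Rbp7 (-1.78), Aldh1a3 (-1.67), Dhrs4 (-0.99) and Fabp5 (-0.77). The largest rises were those of Nr2f2 (0.681 to 97.0 CPM), Hoxb1 (0.162 to 73.5 CPM), Nr2f1 (0.019 to 28.5 CPM) and Ttr (0 to 22.1 CPM). Cyp26c1, the remaining CYP26 gene, was at 0.261 CPM at T0 and 0.334 CPM at T60 and did not pass the filter there.

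Genes with the most similar course over the 16 group means of the RA experiment were named for each member by Pearson's r of log2 CPM among 10368 genes, as a description over means that share libraries. For Rarb they were Hoxb3 (0.990), Nrip1 (0.989) and Hoxaas2 (0.988), and for Dhrs3 Best1 (0.989), Rarb itself (0.987) and Hoxaas2 (0.986). For Cyp26a1 they were Hoxa3 (0.982), Hoxa5 (0.981) and Rbm46 (0.980), and for Cyp26b1 Klhl23 (0.987), Spsb1 (0.987) and Stox2 (0.986). For Stra6 they were Foxa1 (0.991), Gdpd5 (0.991) and Stox2 (0.986), for Crabp2 Tshz3 (0.965), Olfml2b (0.959) and Fzd4 (0.958), and for Rara Foxp1 (0.944), Bicd1 (0.938) and Slain2 (0.926). The falling Rarg was closest to Dut (0.988), Hpdl (0.984) and Tuba1b (0.979). Crabp1 had no close match, with Traf1 (0.836), Gadd45a (0.830) and Tepp (0.829) as the nearest. Most of these names depended on the measure. By Spearman's rho, only Foxp1 and Slain2 for Rara, Gadd45a for Crabp1 and Hoxaas2 for Dhrs3 stayed among the 3 nearest. Rbm46 had a rho of 0.771 with Cyp26a1. Tuba1b lies on chromosome 15, as Rarg does.

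After POLE4 depletion in the WT background no member was DE at T0, T12, T24 or 96h. At T0, 0 of 7 members tested were DE, where 0% of all features were, and 0 had an unadjusted p below 0.05 while 2069 features did. At T12 0 of 9 were DE (0% of all features), and 4 had an unadjusted p below 0.05, all lower in dPOLE4: Rara (-0.15), Cyp26a1 (-0.28), Stra6 (-0.28) and Dhrs3 (-0.30), with adjusted p from 0.438 to 0.77. Over all features, 1150 of 17914 had an unadjusted p below 0.05 there. At T24 0 of 9 were DE (0%) with 2 at an unadjusted p below 0.05, where 1451 of 19093 features were. At 96h 0 of 7 were DE (0%) with 0, where 2164 of 17580 features were. The 96h test did not use the pairing of libraries by replicate number. With that number as a block, 142 features were DE at 96h and no call of a member changed. The DESeq2 test likewise gave 0 DE members at these 4 times, with 0, 2, 15 and 25 features in all. The Cyp26a1 libraries at T12, at 166, 216 and 187 CPM in Ctrl and 151, 154 and 164 CPM in dPOLE4, lay apart from each other.

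At T60 Crabp1 was the DE member after POLE4 depletion in the WT background, where 0.193% of all features were DE. Its level was 14.2, 11.2 and 10.8 CPM in Ctrl and 3.89, 5.95 and 6.03 CPM in dPOLE4, with no overlap, and the log2 fold change was -1.16 (SE 0.16, adjusted p = 0.00187). The call was lost without dPOLE4 T60 replicate 1 (-1.01) or replicate 3 (-1.25). The rise of Crabp1 at T60 seen in Ctrl was absent in dPOLE4, where it measured -0.55 (SE 0.16, adjusted p = 0.00719) over T0, below the fold threshold, and -0.65 or -0.64, past it, without dPOLE4 T0 replicate 2 or dPOLE4 T60 replicate 3. The difference between the 2 responses was -1.26 (SE 0.22, adjusted p = 0.0704), not DE in this test, though the DESeq2 test called it (-1.28). Cyp26b1 stood at 278, 299 and 329 CPM in dPOLE4 against 261, 232 and 225 CPM in Ctrl, apart but under the threshold (0.35, SE 0.07, adjusted p = 0.0171). Fibroblast markers, which stand for other differentiated cells, summed to 329 to 456 CPM in Ctrl and 267 to 285 CPM in dPOLE4 at T60, with all 5 detected in both. The neural markers summed to 347 to 374 CPM and 302 to 318 CPM. Their part in the Crabp1 result was not tested.

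**Figure D3:**
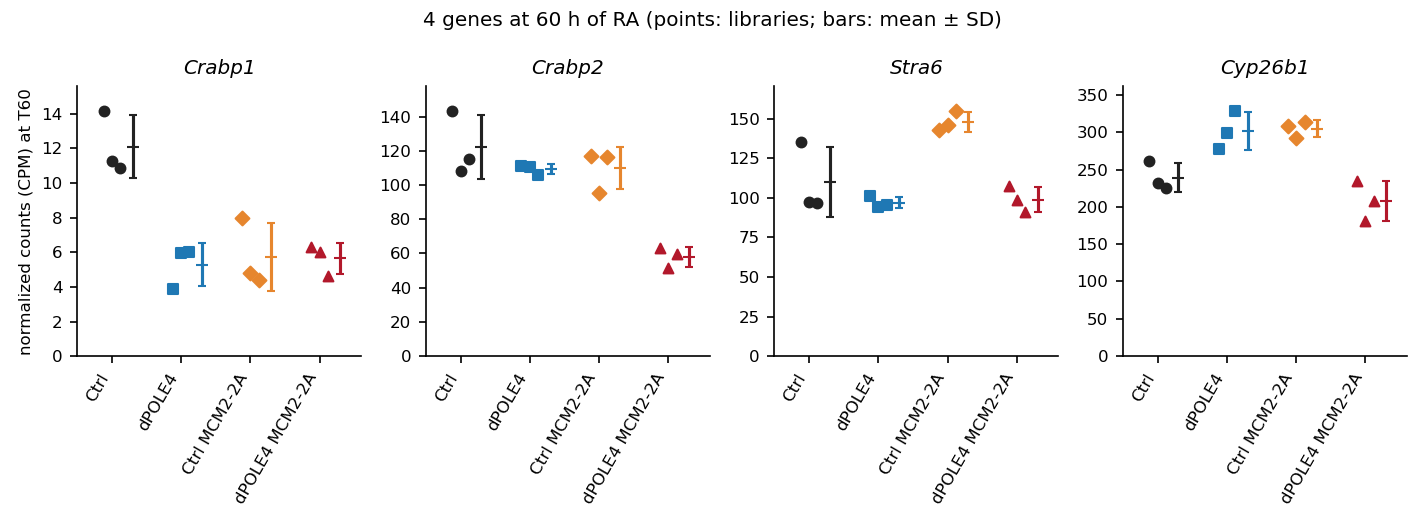
Level at 60 h of RA (CPM) of the 4 genes with a DE call in a POLE4 comparison at T60, with 1 point per library and bars as mean ± SD of 3 libraries in each state. Crabp1 was at 10.8 to 14.2 CPM in Ctrl and at or below 7.97 CPM in each library of the other 3 states, Crabp2 was lowest in dPOLE4 MCM2-2A (51.8 to 63.2 CPM), and Cyp26b1 was higher than Ctrl in dPOLE4 and lower than Ctrl MCM2-2A in dPOLE4 MCM2-2A.

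In the MCM2-2A background the members that were DE after POLE4 depletion were all lower, and only during RA. At T0 0 of 9 members were DE (0.0715% of all features). There 4 had an unadjusted p below 0.05, 3 higher and 1 lower, where 2457 of 18171 features did. At 96h 0 of 9 were DE (0.304%). There 1 had an unadjusted p below 0.05 and was higher, where 2004 of 17421 features did. The DESeq2 test gave 0 DE members at both times. With the replicate number as a block, 307 features and 0 members were DE at 96h. At T12 Cyp26a1 was DE, where 0.404% of all features were. It was at 135, 116 and 157 CPM in Ctrl MCM2-2A and 86.2, 81.4 and 97.6 CPM in dPOLE4 MCM2-2A, with no overlap and a log2 fold change of -0.62 (SE 0.10, adjusted p = 0.00773). The call was lost without Ctrl MCM2-2A T12 replicate 1 (-0.62) or 3 (-0.51) and without dPOLE4 MCM2-2A T12 replicate 1 (-0.60) or 2 (-0.56). At T24 0 of 9 were DE (1.02% of all features), with 7 at an unadjusted p below 0.05, all lower. Over all features, 3888 of 18441 had an unadjusted p below 0.05 there. Of the 7 members, Cyp26a1 (-0.32, adjusted p = 0.00584) and Rarg (-0.32, adjusted p = 0.00863) passed the p threshold and not the fold threshold. At T12 and T24 the DESeq2 test called 1 and 0 members.

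At T60 Crabp2 and Stra6 were DE and lower after POLE4 depletion in the MCM2-2A background, where 2.25% of all features were DE. Crabp2 was at 117, 95.6 and 117 CPM in Ctrl MCM2-2A and at 63.2, 51.8 and 59.5 CPM in dPOLE4 MCM2-2A (-0.91, SE 0.10, adjusted p = 0.000499). Stra6 was at 143, 146 and 155 CPM and at 107, 98.4 and 91 CPM (-0.58, SE 0.07, adjusted p = 0.001). Neither gene overlapped between the groups, but the Stra6 value lay at the fold threshold and its call was lost without Ctrl MCM2-2A T60 replicate 3 (-0.55) or dPOLE4 MCM2-2A T60 replicate 2 (-0.58) or 3 (-0.52). Cyp26b1 was at 309, 292 and 314 CPM and at 234, 181 and 208 CPM (-0.55, SE 0.09, adjusted p = 0.00277), under the fold threshold, and -0.65 and past it without dPOLE4 MCM2-2A T60 replicate 1. Crabp1, the gene that differed in the WT background, measured -0.02 (SE 0.22). Of the 54 pathway genes, 47 were tested and 2 were higher and 4 lower, Cdx1 (0.65) and Tgm2 (0.72) against Meis1 (-0.62), Meis2 (-0.97), Nr2f1 (-1.42) and Nr2f2 (-1.06). In the WT background 1 of 43 was DE, Nr2f1 (-0.79). The fibroblast markers summed to 139 to 162 CPM in Ctrl MCM2-2A and 60.2 to 73.7 CPM in dPOLE4 MCM2-2A, the neural markers to 232 to 268 CPM and 176 to 191 CPM, the endoderm markers to 528 to 587 CPM and 413 to 460 CPM, and the pluripotency markers to 640 to 807 CPM and 765 to 967 CPM. Of these lists 4 and 3 of 5, 6 and 6 of 6, 6 and 6 of 7, and 7 and 7 of 7 markers reached 1 CPM, and their part in these results was not tested.

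The effect of POLE4 depletion was compared between the backgrounds directly. For Cyp26b1 at T60 the MCM2-2A effect was lower than the WT effect by -0.89 on the log2 scale (SE 0.12, adjusted p = 0.00296), and it was the DE member there (0.1% of all features). The signs were opposite, with 0.35 in WT and -0.55 in MCM2-2A. The call was lost without Ctrl T60 replicate 3 (-0.85), dPOLE4 T60 replicate 3 (-0.83) or Ctrl MCM2-2A T60 replicate 3 (-0.88), and with all groups in one fit (adjusted p = 0.0241). Crabp2 differed by -0.75 (SE 0.14, adjusted p = 0.0188) and Crabp1 by 1.16 (SE 0.30, adjusted p = 0.102), neither DE, and Crabp2 passed without Ctrl T60 replicate 1 (-0.89) or Ctrl MCM2-2A T60 replicate 2 (-0.85). At T0 (0.00526% of all features), T12 (0.0159%), T24 (0.0351%) and 96h (0%) 0 members were DE, with 2, 3, 2 and 0 at an unadjusted p below 0.05 and 0 by the DESeq2 test. Over all features, 1024, 1399, 1759 and 686 had an unadjusted p below 0.05 at these times.

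More members were DE between the backgrounds than between the POLE4 states. Before RA, 6 of 7 members tested were DE between Ctrl MCM2-2A and Ctrl, where 18.9% of all features were. Rarg was at 480, 438 and 418 CPM against 181, 181 and 183 CPM (1.28, SE 0.05, adjusted p = 1.93e-08). Stra6 was at 4.42, 3.6 and 3.68 CPM against 0.567, 1.2 and 0.809 CPM (2.16, SE 0.25, adjusted p = 2.42e-05), and Dhrs3 at 4.42, 4.13 and 4.2 CPM against 0.964, 1.65 and 2.18 CPM (1.38, SE 0.23, adjusted p = 0.000505). Crabp2 was at 22.5, 20.1 and 17.5 CPM against 7.94, 7.75 and 8.7 CPM (1.27, SE 0.11, adjusted p = 2.66e-06). These 4 genes were higher in Ctrl MCM2-2A with no overlap, and so was Crabp1 (0.69, SE 0.14, adjusted p = 0.00154), whose call was lost without Ctrl T0 replicate 3 (0.65) or Ctrl MCM2-2A T0 replicate 1 (0.55). Cyp26a1 alone of the DE members was lower, at 0.977, 0.842 and 1.27 CPM against 2.95, 3.36 and 3.29 CPM (-1.57, SE 0.22, adjusted p = 0.000106). Rarg and Crabp2 thus started out higher in Ctrl MCM2-2A than in Ctrl, and Cyp26a1 lower. Cyp26b1, with too few counts at T0 to be tested, was at 0.412 CPM in Ctrl MCM2-2A against 0.202 CPM in Ctrl.

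At 96h without RA, in separate libraries of both lines, 5 of 9 members were DE (15.7% of all features). Rarg was at 406, 444 and 425 CPM against 194, 215 and 205 CPM (1.07, SE 0.08, adjusted p = 1.33e-06), and Stra6 at 4.3, 4.6 and 3.25 CPM against 1.45, 0.612 and 0.821 CPM (2.06, SE 0.30, adjusted p = 0.000184). Dhrs3 was higher by 1.47 (SE 0.25, adjusted p = 0.000574) and Rara lower by -0.93 (SE 0.12, adjusted p = 7.3e-05). Crabp1 (0.58, SE 0.13, adjusted p = 0.00396) stood at the threshold, and its call was lost without any of the 3 Ctrl libraries (0.57, 0.61 and 0.56) and without Ctrl MCM2-2A 96h replicate 2 (0.56) or 3 (0.57). The Crabp1 call was also lost with DESeq2 (0.565), without a filter (0.561) and with all groups in one fit (0.568). By the DESeq2 test 4 members were DE. Crabp2 (0.39, SE 0.18, adjusted p = 0.101) and Cyp26a1 (-0.19, SE 0.28, adjusted p = 0.646), which differed at T0, overlapped between the lines at 96h. With the replicate number as a block, which the libraries of this experiment allow, the DE features went from 2767 to 3077 here, from 0 to 142 for POLE4 depletion in WT and from 53 to 307 in MCM2-2A, and no call of a member changed.

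During RA the differences between the backgrounds changed from gene to gene. At T12 4 members were DE (14.5% of all features), at T24 5 (17.3%) and at T60 4 (16.9%). Rarg was higher at each time, by 0.96, 1.03 and 1.46. At T60 its libraries held 95.3, 89.1 and 89.4 CPM in Ctrl MCM2-2A against 37.5, 31.9 and 30.2 CPM in Ctrl. Cyp26b1 was higher at T12 (32.5, 29.6 and 41.3 CPM against 9.64, 15.3 and 14.3 CPM, a log2 difference of 1.42, SE 0.17, adjusted p = 0.000115) and at T24 (1.53, SE 0.11, adjusted p = 8.6e-09), and by 0.36 (SE 0.07, adjusted p = 0.000412) at T60, under the fold threshold. Stra6 was higher at T12 (0.76) and not past the fold threshold at T24 (0.46) and T60 (0.43, or 0.61 and past it without Ctrl T60 replicate 1).

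Other members fell below Ctrl in the same course. Dhrs3, higher before RA, was lower at T12 (-0.62), T24 (-0.62) and T60, where it was at 75.6, 73.1 and 72.2 CPM against 155, 129 and 128 CPM (-0.89, SE 0.07, adjusted p = 2.34e-07). Its T12 call was lost without Ctrl T12 replicate 2 (-0.58) or Ctrl MCM2-2A T12 replicate 2 (-0.56). Crabp2 was lower at T24, at 37, 45.4 and 39.6 CPM against 78.3, 89.6 and 89.3 CPM (-1.04, SE 0.07, adjusted p = 6.66e-09), and overlapped at T60 (-0.15, SE 0.10). Crabp1 was higher at T24 (0.69) and lower at T60 (-1.09, SE 0.19, adjusted p = 0.000344). Rarb was lower at T60, at 28.8, 35.1 and 35.9 CPM against 53.1, 49.9 and 49.4 CPM (-0.60, SE 0.09, adjusted p = 6.2e-05), a call lost without Ctrl T60 replicate 1 (-0.57) or Ctrl MCM2-2A T60 replicate 1 (-0.50). Cyp26a1 was lower at T12 by -0.47, or -0.58 and DE without Ctrl MCM2-2A T12 replicate 3, and overlapped at T24 and T60. Crabp1 at T12 (0.54) became DE without Ctrl MCM2-2A T12 replicate 2 (0.70).

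The pluripotency markers at T60 summed to 279 to 370 CPM in Ctrl and 640 to 807 CPM in Ctrl MCM2-2A, with all 7 detected, and the fibroblast markers to 329 to 456 CPM (5 of 5 at 1 CPM) and 139 to 162 CPM (4 of 5). The endoderm markers summed to 305 to 375 CPM (7 of 7) and 528 to 587 CPM (6 of 7), and the neural markers to 347 to 374 CPM and 232 to 268 CPM (6 of 6 in both). The part of these marker differences in the members' differences was not tested. Of the other pathway genes, 8 were higher and 4 lower of 39 tested at T0, where 18.9% of all features were DE. Among them was Rxrg (1.73 CPM against 0.407 CPM in Ctrl, or 2.08 on the log2 scale). At T60, 5 were higher and 11 lower of 46, where 16.9% of all features were DE, among them Aldh1a2 (-1.11).

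Genome position moved with the values of a pair of receptors. Rara lies on chromosome 11, whose other genes tested had a median log2 fold change between Ctrl MCM2-2A and Ctrl of -0.476 at T0, -0.51 at T12, -0.494 at T24, -0.549 at T60 and -0.508 at 96h. Within 5 Mb of Rara the medians were -0.416, -0.481, -0.402, -0.505 and -0.458, next to -0.25, -0.32, -0.27, -0.45 and -0.93 for Rara itself. Rarg lies on chromosome 15, where the medians were 0.557, 0.51, 0.523, 0.466 and 0.526, and 0.622, 0.539, 0.522, 0.46 and 0.504 within 5 Mb. Less the local median, Rara measured 0.162, 0.164, 0.132, 0.058 and -0.475, so its sign turned at the first 4 times. Less its own, Rarg remained higher by 0.656, 0.423, 0.511, 1.00 and 0.568. The neighbours of both genes thus shifted in the same direction as the gene, and the part of the number of copies of these chromosomes in either value was not tested. Rarb lies on chromosome 14, where the medians were 0.223, 0.209, 0.299 and 0.343 at T12, T24, T60 and 96h, while those within 5 Mb were -0.0919, -0.0293, -0.0604 and -0.105. Its T60 value of -0.60 was thus -0.90 less the chromosome median and -0.54 less the local one. The local medians of Cyp26a1, Cyp26b1, Crabp1, Crabp2, Stra6 and Dhrs3 lay between -0.03 and 0.137.

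**Figure D4:**
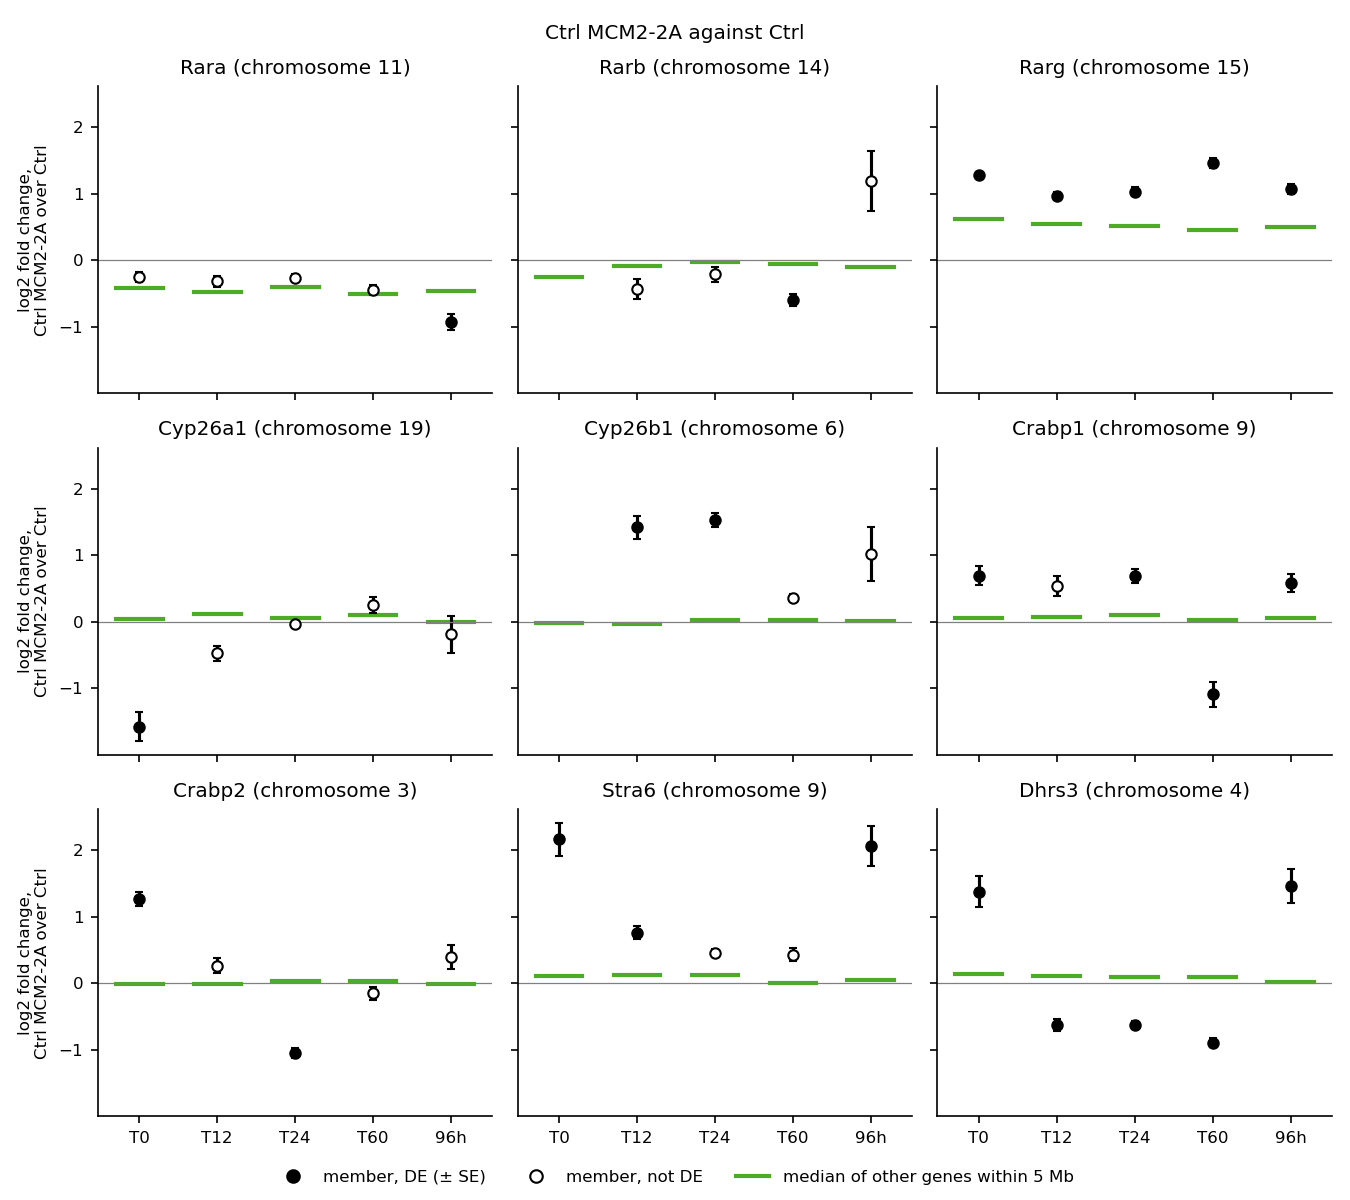
Log2 fold change of each gene in Ctrl MCM2-2A over Ctrl at T0, T12, T24, T60 and 96h (points with SE, filled where DE), with the median of the other genes tested within 5 Mb as a green bar. Rarg was above its local median at all 5 times, while Rara lay 0.058 to 0.164 above its own at the first 4 and below it at 96h.

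The courses under RA were then compared as responses, each state over its own T0. In dPOLE4 6, 7 and 7 members were DE at T12, T24 and T60 (11.7%, 19.2% and 48.1% of all features). In Ctrl MCM2-2A there were 6, 8 and 8 (8.65%, 23.9% and 47.5%) and in dPOLE4 MCM2-2A 5, 7 and 8 (7.79%, 19.6% and 42.2%). Cyp26a1, Cyp26b1, Rarb, Stra6 and Dhrs3 were DE and higher in all 4 states at all 3 times. Of these, Rarb and Cyp26b1 had too few counts at T0 to pass the filter where the T0 libraries of Ctrl were compared with those of dPOLE4 or Ctrl MCM2-2A, so that in these 3 states they entered through the RA-treated libraries and their calls were bound to follow. These 5 genes encode the enzymes that remove RA, the receptor that it induces, the uptake of retinol and the return of retinaldehyde to retinol.

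Rara and Crabp2 were the members whose calls differed early. Rara rose at T12 by 0.75 in Ctrl, 0.52 in dPOLE4, 0.70 in Ctrl MCM2-2A and 0.55 in dPOLE4 MCM2-2A, with the second and last under the fold threshold, and the differences of its response from that of Ctrl, -0.22 to -0.03 over the 3 states and times, were not DE. The dPOLE4 MCM2-2A value passed without dPOLE4 MCM2-2A T0 replicate 1 (0.63) or dPOLE4 MCM2-2A T12 replicate 3 (0.59). At T24 Rara was DE in Ctrl MCM2-2A (0.58) and not without Ctrl MCM2-2A T0 replicate 2 (0.54) or 3 (0.50) or T24 replicate 2 (0.53). That call was also lost with DESeq2 (0.56), its size factors in edgeR (0.57) and no filter (0.56). The replicate block (0.58) and all groups in one fit (0.56) lost it too. At T24 Rara became DE in dPOLE4 (0.54) without dPOLE4 T24 replicate 3 (0.60). In dPOLE4 MCM2-2A (0.51) it did so without dPOLE4 MCM2-2A T0 replicate 1 (0.60). Crabp2 at T12 measured 0.37 (SE 0.11, adjusted p = 0.0212) in Ctrl MCM2-2A and 0.23 (SE 0.10, adjusted p = 0.103) in dPOLE4 MCM2-2A. At T24 its libraries in dPOLE4 MCM2-2A held 27.8, 36.9 and 27.7 CPM against 23, 18.5 and 18.8 CPM at T0 (0.59, SE 0.13, adjusted p = 0.00299), a call lost without dPOLE4 MCM2-2A T0 replicate 2 (0.55) or 3 (0.54) or T24 replicate 2 (0.47).

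Late in the course Crabp1 rose in Ctrl and in none of the other states. In dPOLE4 its mean went from 7.84 CPM at T0 to 5.29 CPM at T60, a fall under the fold threshold. At T60 it had fallen in Ctrl MCM2-2A, from 14.7, 9.79 and 11.3 CPM at T0 to 7.97, 4.79 and 4.4 CPM (-1.07, SE 0.20, adjusted p = 0.000405), and in dPOLE4 MCM2-2A, from 20.8, 16.1 and 12.8 CPM to 6.3, 6.01 and 4.63 CPM (-1.57, SE 0.19, adjusted p = 1.36e-05). Rarg fell in each state, by -2.45 in dPOLE4, -2.27 in Ctrl MCM2-2A and -1.77 in dPOLE4 MCM2-2A, where 113, 120 and 103 CPM were left. In that last state Rarg still made up 54.8% of the receptor RNA per kb, next to 33.1% Rara and 12.1% Rarb. Crabp2 at T60 had risen 15.0-fold in Ctrl, 13.8-fold in dPOLE4, 5.48-fold in Ctrl MCM2-2A and 2.89-fold in dPOLE4 MCM2-2A.

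Between dPOLE4 and Ctrl, 0 members differed in their response at T12 (0% of all features), T24 (0%) or T60 (0.0104%), with 2, 1 and 1 at an unadjusted p below 0.05 and 0, 0 and 1 by the DESeq2 test. Over all features, 1811, 611 and 2518 had an unadjusted p below 0.05 at these times. Between Ctrl MCM2-2A and Ctrl, 3 members differed at T12 (0.303%), 4 at T24 (2.18%) and 5 at T60 (9.1%). Between dPOLE4 MCM2-2A and Ctrl, 3 differed at T12 (0.497%), 3 at T24 (2.43%) and 7 at T60 (10.9%). These comparisons share the Ctrl libraries, so their values stand side by side and are not independent. In the other pathway genes, 15 of 47 tested differed at T60 for Ctrl MCM2-2A (5 higher and 10 lower) and 17 of 46 for dPOLE4 MCM2-2A (3 higher and 14 lower).

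Crabp2, Stra6 and Dhrs3 had a smaller fold change over T0 in both MCM2-2A states at all 3 times. For Dhrs3 the difference from Ctrl was -1.99, -2.01 and -2.29 in Ctrl MCM2-2A and -2.06, -1.99 and -2.30 in dPOLE4 MCM2-2A (SE 0.19 to 0.22). Its libraries in dPOLE4 MCM2-2A rose from 3.68, 3.95 and 3.5 CPM at T0 to 62.8, 60.8 and 66.5 CPM at T60, a higher start and a lower end than in Ctrl. For Stra6 the differences were -1.39, -1.71 and -1.76, and -1.58, -2.05 and -2.51. Stra6 in Ctrl MCM2-2A ended at 143, 146 and 155 CPM, above its Ctrl level, so its smaller fold came with the higher level at T0. For Crabp2 the differences were -1.0, -2.32 and -1.44, and -1.13, -2.77 and -2.38 (SE 0.14 to 0.17). In Ctrl MCM2-2A its mean level was 25.3, 40.7 and 109.7 CPM at T12, T24 and T60, against 21.2, 85.7 and 122.2 CPM in Ctrl. The libraries overlapped at T12 and T60, so the smaller folds there came with the higher level at T0 (1.27 on the log2 scale). That T0 difference was not DE at 96h. In dPOLE4 MCM2-2A the mean was 23.4, 30.8 and 58.2 CPM, which overlapped Ctrl at T12 and lay below it later.

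Of these 6 calls at T12, 3 could be lost by leaving out 1 library. Dhrs3 in both states and Crabp2 in dPOLE4 MCM2-2A kept theirs with each library left out. In Ctrl MCM2-2A, Crabp2 lost its call with any of 9 of the 12 libraries left out (-1.05 to -0.90), all except Ctrl T12 replicate 1, Ctrl MCM2-2A T0 replicate 3 and Ctrl MCM2-2A T12 replicate 3. Stra6 lost its call with any of 9 left out (-1.45 to -1.18), all except Ctrl T0 replicate 2, Ctrl T12 replicate 1 and Ctrl MCM2-2A T12 replicate 3. In dPOLE4 MCM2-2A, Stra6 at T12 lost its call without Ctrl T0 replicate 3 (-1.53).

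Cyp26a1 had a larger response than in Ctrl at T24 and T60 in Ctrl MCM2-2A and at T60 in dPOLE4 MCM2-2A. In Ctrl MCM2-2A the difference from Ctrl at T12 was 1.08 (SE 0.26, adjusted p = 0.0671), not DE in this test, though the DESeq2 test (1.09) and the fit without a filter (1.04) called it. It was 1.51 (SE 0.17, adjusted p = 2.07e-05) at T24 and 1.77 (SE 0.32, adjusted p = 0.000548) at T60. The levels at T60 were 256, 256 and 242 CPM against 276, 188 and 172 CPM in Ctrl and overlapped, so the larger fold came with the lower level at T0. In dPOLE4 MCM2-2A the difference was -0.15 (SE 0.21, adjusted p = 0.752) at T12 and 0.57 (SE 0.15, adjusted p = 0.026) at T24, neither DE. At T60 it was 1.11 (SE 0.27, adjusted p = 0.00652), and it lost its call with any of 9 of the 12 libraries left out (1.04 to 1.20), all except Ctrl T60 replicates 1 and 3 and dPOLE4 MCM2-2A T60 replicate 3.

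The remaining differences were in dPOLE4 MCM2-2A at T60 and in Crabp1. Cyp26b1 rose less by -2.21 (SE 0.38, adjusted p = 0.000451), from 0.877, 0.719 and 0.827 CPM to 234, 181 and 208 CPM, next to 3 to 5 counts in each Ctrl library at T0, where it passed the filter through other groups. This call was lost with all groups in one fit (-2.20, adjusted p = 0.0202). Rarg fell less, with a difference of 0.70 (SE 0.11, adjusted p = 0.000283). Rarb differed by -1.32 (SE 0.36, adjusted p = 0.0132) and was not DE, except without dPOLE4 MCM2-2A T60 replicate 3 (-1.39) and by the DESeq2 test. Crabp1 differed by -1.82 (SE 0.26, adjusted p = 7.78e-05) in Ctrl MCM2-2A and by -2.28 (SE 0.25, adjusted p = 3.85e-06) in dPOLE4 MCM2-2A.

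**Figure D5:**
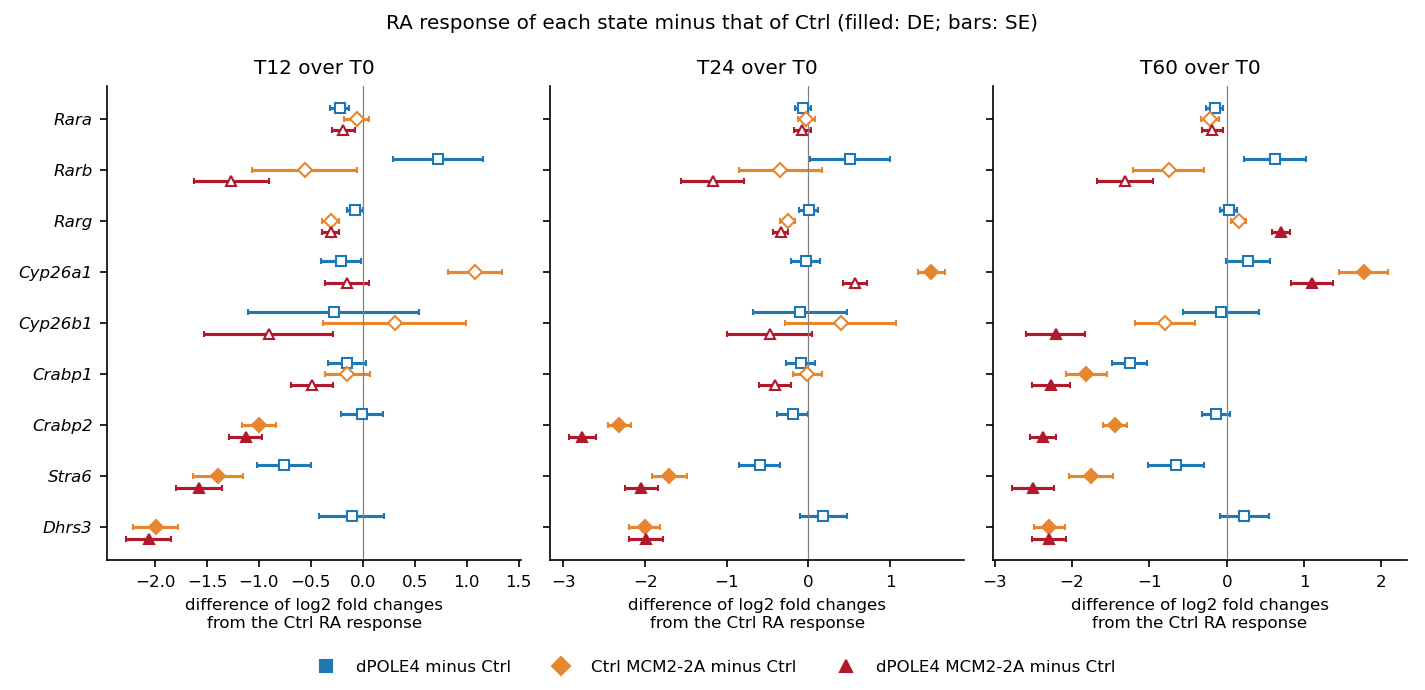
Difference between the log2 fold change over T0 of each state and that of Ctrl, for each gene at T12, T24 and T60 (points with SE, filled where DE). Dhrs3, Stra6 and Crabp2 lay left of 0 and filled in both MCM2-2A states in all 3 panels, Cyp26a1 lay to the right at T60, and no point of dPOLE4 was filled.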

How the data were processed

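The count tables were deposited by the authors. Per the study's methods, reads of strand-specific, rRNA-depleted libraries were trimmed with cutadapt 4.2, aligned to mm10 (GRCm38) with STAR, keeping reads with several matches, and counted over genes and repeats with TEtranscripts. The tables hold whole-number counts of 56633 features, 55487 genes and 1146 repeat subfamilies, as deposited. The strand setting of the counting is not given in the sources used here. Symbols, positions and exon lengths came from a GENCODE annotation of GRCm38, which matched 55227 gene identifiers.

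Groups came from the sample titles. A treatment note in the labels names other hours of RA than the titles and the design text, which were followed. The members and gene lists were chosen with earlier results of these data known. All 9 members were named in every comparison. From the pathway list, the up to 4 genes with the largest DE fold change in each direction in Ctrl at T60, were named, plus a fixed set of which Rxra, Rxrb, Rxrg, Aldh1a2, Rdh10 and Cyp26c1 are given. The remaining gene of that set is not reported here.

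For each of 43 comparisons, 29 of 2 groups and 14 of differences of effects, the libraries compared were fitted in edgeR 4.0.16 (R 4.3.3, limma 3.58.1) after filterByExpr (minimum count 10, minimum total 15) and TMM scaling over genes and repeats, with the quasi-likelihood F test. CPM were TMM-scaled, and log2 CPM had a prior count of 2. The fits were tested on simulated counts. Alternatives were DESeq2 1.42.0, its size factors in edgeR, no filter, a replicate block, all groups of a table in one fit, each library left out in turn and, between backgrounds, subtraction of the chromosome or 5 Mb median. Counts of replicates differed beyond sampling noise in all 60 pairs (chi-square per degree of freedom 2.70 to 37.0), so none was counted as 1 sample. Replicate numbers came from the titles. The deviations of same-numbered libraries correlated above 0.1 in every pair in 3 of 29 comparisons, all at 96h (r 0.167 to 0.337 in WT, 0.122 to 0.323 in MCM2-2A and 0.108 to 0.193 between backgrounds), and the numbers were taken to pair the libraries there.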

Additional observations from a re-analysis of the deposited data

Results flagged for a closer look

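The values here are members whose change differed between states by a test of the difference itself (edgeR, DE by the thresholds above). They are differences of log2 fold changes.

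In the response to RA, Ctrl MCM2-2A minus Ctrl, the members were Crabp2 (-1.0), Stra6 (-1.39) and Dhrs3 (-1.99) at T12. At T24 they were Cyp26a1 (1.51), Crabp2 (-2.32), Stra6 (-1.71) and Dhrs3 (-2.01). At T60 they were Cyp26a1 (1.77), Crabp1 (-1.82), Crabp2 (-1.44), Stra6 (-1.76) and Dhrs3 (-2.29).

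In the response of dPOLE4 MCM2-2A minus that of Ctrl, the members were Crabp2 (-1.13), Stra6 (-1.58) and Dhrs3 (-2.06) at T12 and Crabp2 (-2.77), Stra6 (-2.05) and Dhrs3 (-1.99) at T24. At T60 they were Rarg (0.70), Cyp26a1 (1.11), Cyp26b1 (-2.21), Crabp1 (-2.28), Crabp2 (-2.38), Stra6 (-2.51) and Dhrs3 (-2.30). Both sets share the Ctrl libraries.

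In the effect of POLE4 depletion, MCM2-2A minus WT, Cyp26b1 at T60 (-0.89) was the member flagged.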

How the results depend on the processing

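Of the counts of DE members under the alternatives, 526 stayed within 1.5 times the value in the report and 31 did not, and no value of a member changed sign where it was called. POLE4 depletion in MCM2-2A gave 0 DE members at T12 with the replicate block (Cyp26a1 -0.62), against 1, and 1 at T60 with DESeq2 size factors (Stra6 -0.58), against 2. The response of dPOLE4 minus Ctrl at T60 gave 1 with DESeq2 and 1 without a filter (Crabp1 in both), against 0. The response of Ctrl MCM2-2A minus Ctrl at T12 gave 1 with the replicate block, against 3, as Crabp2 (-1.01) and Stra6 (-1.39) were lost. The difference of the POLE4 effect between backgrounds at T60 gave 2 with DESeq2, 3 without a filter, 2 with the replicate block and 0 with all groups in one fit, against 1. Under that last setting Cyp26b1 in the dPOLE4 MCM2-2A response at T60 (-2.20) was lost too. The cause was not tested.

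Leaving out 1 library at a time, the members DE ranged from 0 to 1 for POLE4 depletion in WT at T60, 0 to 1 in MCM2-2A at T12 and 1 to 3 at T60, 1 to 3 for the Ctrl MCM2-2A response difference at T12 and 0 to 2 for the difference of the POLE4 effect at T60. Over single members, leaving out a library kept 2964 results on their side of the threshold, lost 63 and gained 15. With the replicate block 375 results of members kept their side, 5 were lost (also Rara in Ctrl MCM2-2A and Crabp2 in dPOLE4 MCM2-2A, both at T24) and 1 was gained (Crabp2, POLE4 effect at T60, -0.77). Outside the 96 h experiment no comparison had a correlation above 0.1 in every pair. POLE4 depletion in MCM2-2A at T0 came close (r 0.0993 to 0.251), where the block took the DE features from 13 to 143.

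Counts over all features moved by more than 1.5 times in these cases. For POLE4 depletion in WT they were 0 at T0 (27 without a filter, 6 with the block), 0 at T12 (15 and 3, and 2 with DESeq2), 0 at T24 (35, 14 and 15, and 4 in one fit), 33 at T60 (100 without a filter, 17 in one fit) and 0 at 96h (119, 142 and 25). In MCM2-2A they were 13 at T0 (132, 143 and 73, and 126 in one fit), 73 at T12 (245, 13, 115 and 143), 188 at T24 (396 and 288), 416 at T60 (808 without a filter, 625 in one fit) and 53 at 96h (239, 307 and 114). For the difference of these effects they were 1 at T0 (47, 13 and 10, 12 in one fit and 2 with DESeq2 size factors), 3 at T12 (56 without a filter, 20 with DESeq2, 5 in one fit), 7 at T24 (55, 28 and 28), 19 at T60 (193, 45 and 81) and 0 at 96h (30, 1 and 1). For the RA response of dPOLE4 minus Ctrl they were 0 at T12 (60 without a filter), 0 at T24 (17) and 2 at T60 (87, 12 with DESeq2 and 0 in one fit), for Ctrl MCM2-2A minus Ctrl 57 at T12 (219, 34 with the block, 116 with DESeq2 and 129 in one fit) and 426 at T24 (649 without a filter), and for dPOLE4 MCM2-2A minus Ctrl 94 at T12 (373, 147, 192 and 193) and 477 at T24 (815).

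Less the local median, 13 of 43 values between backgrounds moved by more than the spread, those of Rara and Rarg at each time and of Crabp1, Stra6 and Dhrs3 at T24. Rarb and Cyp26b1 had at most 10 counts in each Ctrl library at T0, so their folds over T0 are the least precise.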
